A study of Mus musculus with 8 samples.

Results

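The genes described here encode the 5 NF-κB transcription factor subunits (Rela, Rel, Relb, Nfkb1 and Nfkb2), 4 proteins of the IκB family (Nfkbia, Nfkbib, Nfkbiz and Bcl3) and the NF-κB inhibitor Tnfaip3. They were chosen by name, as the rows of the deposited count table whose Ensembl identifiers carry these 10 symbols, and all 10 were found among 55487 rows. All 10 also passed the filter on low counts, which kept 17047 genes. The RNA came from the hypothalamus of C57BL/6J mice. The hypoxia group (4 libraries) had been kept at 7% oxygen in a chamber for 2 hours, and the normoxia group (4 libraries) was held for the same 2 hours at 21% oxygen. Neither group carried a mutation or received a drug according to the labels. According to the design text the 4 libraries of each condition are biological replicates, and every p-value here rests on the variation among them.

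NF-κB factors are dimers of Rel-domain proteins that lie idle in the cytoplasm while an IκB protein covers them. When a receptor for tumour necrosis factor, interleukin 1 or a microbial product is engaged, the IκB kinase (IKK) complex marks IκB for destruction and the dimer enters the nucleus. Nfkbia and Tnfaip3 are themselves classical targets of the dimer and shut the signal off again, and in several cell types Nfkbia is also induced by the glucocorticoid receptor, whose function under low oxygen the series asks about. In the brain the pathway is best known in microglia, endothelium and astrocytes.

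The promoters of several members carry the DNA motif that NF-κB binds, which is why their sequences are shown. RefSeq windows (GRCm38.p6, from 250 bases before to 50 after a start) were matched by symbol for 7 of the 10 members, giving 10 windows, while Nfkbiz, Nfkb1 and Relb were not matched. The κB consensus decamer, searched on both strands, was found in windows of 5 members (Nfkbia, Nfkb2, Rel, Tnfaip3 and Bcl3) and in neither Nfkbib nor Rela. Of all 32851 windows, 8.46% hold a match. The match nearest to the start of the first listed window is shown for each of the 5, on the gene's strand, in capitals with up to 10 bases on each side.
Nfkbia: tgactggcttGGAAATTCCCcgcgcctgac
Tnfaip3: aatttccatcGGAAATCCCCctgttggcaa
Bcl3: tcggcggcagGGGAAGTCCCgctgcccggc
Rel: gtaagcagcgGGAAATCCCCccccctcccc
Nfkb2: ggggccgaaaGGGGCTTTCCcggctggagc
These stretches lie at chr12:55492657-55492686 (minus strand), chr10:19015403-19015432 (minus), chr7:19822734-19822763 (minus), chr11:23771041-23771070 (minus) and chr19:46304716-46304745 (plus). Relative to the start, the capitals begin at position -29 in Nfkbia, -12 in Tnfaip3, 3 in Bcl3, -91 in Rel and -11 in Nfkb2. In Rel the match shown overlaps another that is shifted by a single base. The match in Nfkbia is the only one in its window, and it stands within the 250 bases before the start at chr12:55492648-55492897, which are shown because Nfkbia gave the smallest p of the 10 members:
Nfkbia promoter: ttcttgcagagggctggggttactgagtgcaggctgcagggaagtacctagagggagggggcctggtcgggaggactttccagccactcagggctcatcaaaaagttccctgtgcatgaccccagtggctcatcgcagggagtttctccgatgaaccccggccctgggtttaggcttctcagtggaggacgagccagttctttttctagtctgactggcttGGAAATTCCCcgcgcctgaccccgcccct
The hypoxia response core ACGTG, also searched on both strands, was present in the windows of Tnfaip3 and Rel and in 19.6% of all windows. The other form of this core that was searched, GCGTG, was present in windows of Nfkb2, Rel and Tnfaip3 and in 32.4% of all windows. A short glucocorticoid receptor recognition sequence, AGAACA, searched in the same way, was present in 1 of the 2 Tnfaip3 windows and in 19.0% of all windows. A match describes letters in a window and shows no binding.

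Total counts ran from 16994473 to 21694383 per library and did not separate the groups (exact permutation test, two-sided p = 0.743). The labelled tissue was checked with 8 hypothalamic genes, Hcrt, Pmch, Avp, Oxt, Agrp, Pomc, Nkx2-1 and Sim1. Their summed level, in CPM (reads relative to library size, with TMM scaling), was 625.8 to 747 in hypoxia and 334 to 750 in normoxia. The lowest, 334, was normoxia replicate 2, and the next was normoxia replicate 1 at 523. Several libraries stood apart in markers of other regions, of oligodendrocytes or of blood. Normoxia replicate 2 had a cortex and hippocampus marker sum of 435 CPM, against 22.6 to 102 CPM in the other 6 libraries besides hypoxia replicate 4 (69.3 CPM). Pituitary markers summed to 80.2 CPM in normoxia replicate 2 and 42.2 CPM in hypoxia replicate 4, against 0.193 to 9.64 CPM in the other 6. Normoxia replicate 1 had a thalamus marker sum of 372 CPM, against 105 to 193 CPM in the other 7 libraries. Hypoxia replicate 1 had a red blood cell marker sum of 70.65 CPM, against 173 to 277 CPM in the other 7. The 5 oligodendrocyte markers summed to 10740 CPM in normoxia replicate 1 and 9200 CPM in hypoxia replicate 2, against 5993 to 7862 CPM in the others. None of these 5 had a positive log2 fold change (median -0.15), with 0 called. The 6 striatum markers summed to 383.9 to 635 CPM in hypoxia and 213.7 to 579 CPM in normoxia, lowest in normoxia replicates 1 (213.7 CPM) and 3 (231 CPM). All 6 had a positive log2 fold change (median 0.43), with 0 called. The part of these differences in the members' values was not tested. For several members and called genes, fits without some of the libraries named are given too. The ratios between members, the counts of genes without overlap and the nearest patterns were computed with all 8 libraries only.

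By edgeR's quasi-likelihood test, none of the 10 members passed a Benjamini-Hochberg adjusted p of 0.05 over all genes tested. The counts were 0 higher and 0 lower, where 0.915% of all genes tested were called higher, 1.23% lower and 2.15% in either direction. At an unadjusted p under 0.05 there were 4 members, Nfkbia and Tnfaip3 with more RNA in hypoxia and Bcl3 and Rel with less, beside 19.3% of all genes. DESeq2 called Nfkbia and Tnfaip3 higher and 0 members lower, beside 2.25% of all genes higher and 3.66% lower by the same tool. With limma-voom 0 members were called. The median log2 fold change (hypoxia over normoxia) of the 10 members was 0.00, beside -0.01 for all genes, with 5 members positive and 5 negative.

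**Figure D1:**
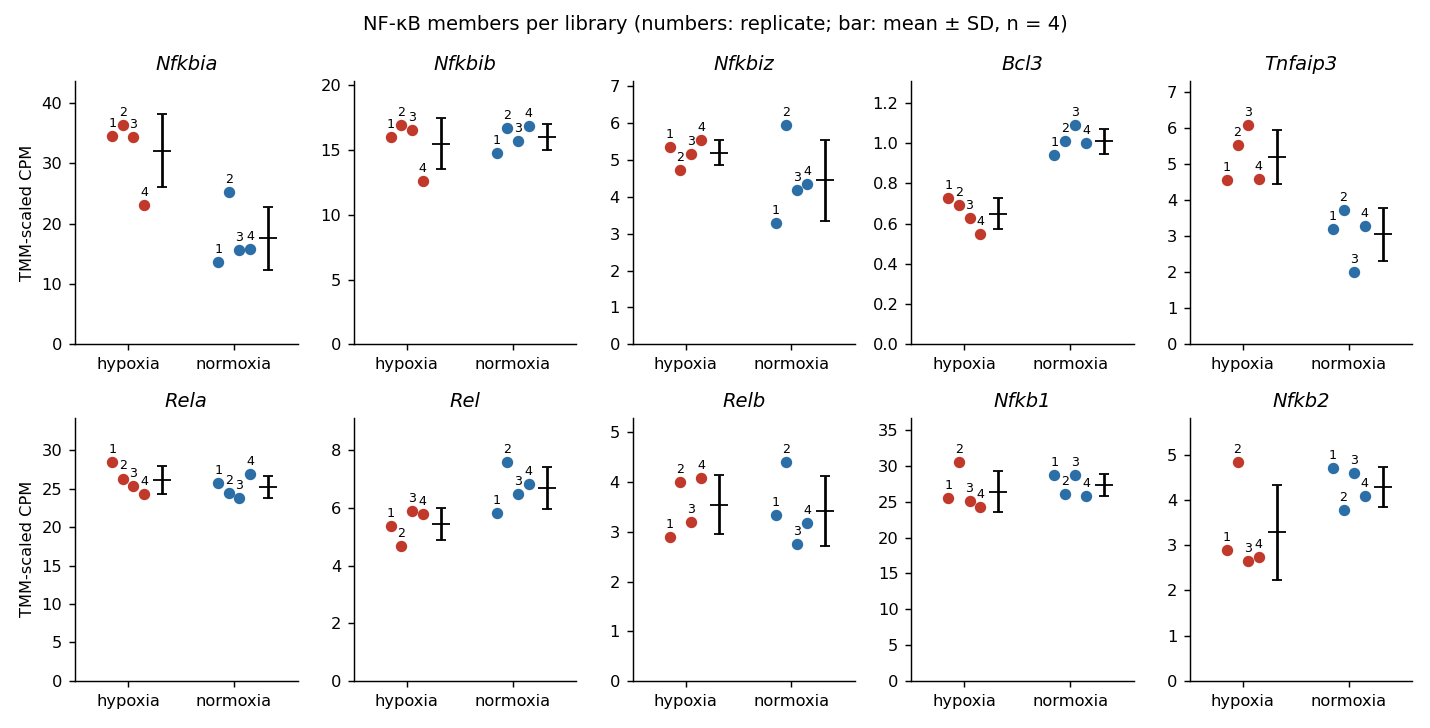
TMM-scaled CPM of the 10 members in each library, hypoxia (red) left of normoxia (blue), with the replicate number beside each point and the mean ± SD (n = 4) as a bar; each panel has its own axis from 0. Tnfaip3 and Bcl3 have no overlap between the groups, and Nfkbia overlaps only through hypoxia replicate 4 (23.1 CPM) and normoxia replicate 2 (25.2 CPM).

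Nfkbia (ENSMUSG00000021025; chromosome 12, 55489410 to 55492647, minus strand, mm10) encodes IκBα, the inhibitor that is destroyed and resynthesised in each round of signalling. It was at 34.5, 36.4, 34.4 and 23.1 CPM in hypoxia replicates 1 to 4, and at 13.6, 25.2, 15.6 and 15.8 CPM in normoxia replicates 1 to 4. Hypoxia replicates 1 to 3 lay above every normoxia library, and the groups overlapped because hypoxia replicate 4 was below normoxia replicate 2. The means were 32.1 ± 6.06 CPM in hypoxia and 17.6 ± 5.19 CPM in normoxia (SD, n = 4 each). The log2 fold change was 0.87 ± 0.20 (SE; 95% interval 0.41 to 1.33; edgeR adjusted p = 0.0621), in the 99.1st percentile of all genes tested.

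Whether Nfkbia was called depended on the libraries used. Its edgeR adjusted p was 0.00685 without normoxia replicate 2 (log2 fold change 1.10) and 0.0294 without hypoxia replicate 4 (1.001). Without both it was 0.000109 (log2 fold change 1.22). These libraries are the highest of the normoxia group and the lowest of the hypoxia group for this gene, so leaving them out must widen the difference. Without normoxia replicate 1, the lowest normoxia library for this gene, the log2 fold change was 0.77 (edgeR adjusted p = 0.127), and without hypoxia replicate 1 it was 0.84 (edgeR adjusted p = 0.184). Over the 6 fits without any 1 of the other libraries, these included, the edgeR adjusted p was 0.127 to 0.191. Those 6 fits called 0.139% to 0.244% of all genes higher. The share was 1.37% without hypoxia replicate 4 and 1.91% without normoxia replicate 2.

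Tnfaip3 (ENSMUSG00000019850; chromosome 10, 19000910 to 19015657, minus strand) encodes a ubiquitin-editing enzyme that dismantles the signalling complexes upstream of IKK. It was at 4.55, 5.54, 6.09 and 4.59 CPM in hypoxia replicates 1 to 4 and at 3.20, 3.72, 2.01 and 3.27 CPM in normoxia replicates 1 to 4. Every hypoxia library was above every normoxia library, as in 5.69% of all genes tested. The means were 5.19 ± 0.753 CPM in hypoxia and 3.05 ± 0.731 CPM in normoxia (SD, n = 4 each). On the log2 scale the difference was 0.76 ± 0.19 (SE; 95% interval 0.33 to 1.195; edgeR adjusted p = 0.0779). The edgeR adjusted p was 0.042 without normoxia replicate 2, 0.0764 without hypoxia replicate 4, 0.0348 without both, and 0.115 to 0.231 without any 1 of the others. Normoxia replicate 2 was the highest normoxia library for Tnfaip3, so leaving it out must widen the difference. Of all genes, 1.91% were called higher without it and 2.66% without both, against 0.915% with all 8 libraries. The Tnfaip3 levels rest on 92 to 126 reads per hypoxia library and 35 to 72 reads per normoxia library.

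**Figure D2:**
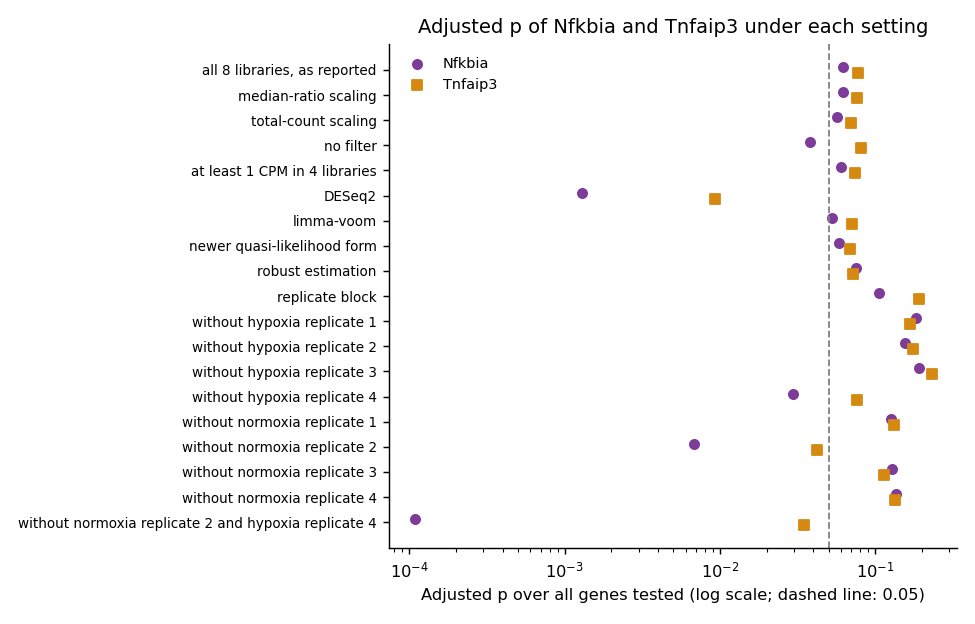
Benjamini-Hochberg adjusted p (log axis) of Nfkbia and Tnfaip3 with all 8 libraries and under each alternative; the dashed line is 0.05. Both lie below the line with DESeq2, without normoxia replicate 2 and without normoxia replicate 2 and hypoxia replicate 4 together; Nfkbia does so also without hypoxia replicate 4 and with no filter on low counts.

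Nfkbib (ENSMUSG00000030595; chromosome 7, 28758251 to 28767512, minus strand) encodes IκBβ, which is degraded and replaced more slowly than IκBα. It was at 16.0, 17.0, 16.5 and 12.6 CPM in hypoxia and 14.8, 16.7, 15.7 and 16.9 CPM in normoxia, so the groups overlapped and hypoxia replicate 4 was the lowest library. Its log2 fold change was -0.05 (95% interval -0.27 to 0.18; edgeR adjusted p = 0.845). Exons of Nfkbib share 356 bases with Ccer2 and Sirt2 on the opposite strand, so its level is uncertain if the counting ignored strand.

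Within the IκB family, the log2 ratio of Nfkbia to Nfkbib had no overlap between the groups. There were 2.15, 2.15, 2.08 and 1.84 Nfkbia reads per Nfkbib read in hypoxia replicates 1 to 4, against 0.924, 1.51, 0.996 and 0.935 in normoxia replicates 1 to 4. This ratio does not depend on how libraries are scaled. It was 1 of 4 ratios, chosen after the members' values were seen. Their log2 differences, hypoxia minus normoxia, were 0.94 for Nfkbia to Nfkbib (exact permutation test, two-sided p = 0.0286, the smallest that 4 against 4 can give), 0.94 for Nfkbia to Nfkb1 (exact p = 0.0571), 0.84 for Nfkbia to Rela (exact p = 0.0571) and 0.74 for Tnfaip3 to Rela (exact p = 0.0286). Adjusted over the 4 ratios each gave p = 0.0571 in this exact test. The groups overlapped in Nfkbia to Rela (0.949 in hypoxia replicate 4, 1.03 in normoxia replicate 2) and in Nfkbia to Nfkb1 (0.951 and 0.965 in the same libraries). Nfkbib itself was lowest in hypoxia replicate 4 (12.6 CPM), which raises its ratio there.

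Nfkbiz (ENSMUSG00000035356; chromosome 16, 55811375 to 55838899, minus strand) encodes a nuclear IκB protein that acts as a cofactor at a subset of NF-κB target genes. It was at 5.37, 4.74, 5.17 and 5.54 CPM in hypoxia and 3.29, 5.96, 4.19 and 4.36 CPM in normoxia. Normoxia replicate 2 was the highest of the 8 libraries and the other 3 normoxia libraries were the lowest. The log2 fold change was 0.23 (95% interval -0.16 to 0.62; edgeR adjusted p = 0.505). Without normoxia replicate 2 it was 0.41 (edgeR adjusted p = 0.132), and without normoxia replicate 1 it was 0.11 (edgeR adjusted p = 0.740).

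Bcl3 (ENSMUSG00000053175; chromosome 7, 19808462 to 19822770, minus strand) encodes a nuclear IκB relative that binds dimers of the Nfkb1 and Nfkb2 products. It was at 0.725, 0.693, 0.628 and 0.549 CPM in hypoxia and 0.94, 1.01, 1.09 and 0.999 CPM in normoxia. All hypoxia libraries were below all normoxia libraries, as in 7.75% of all genes tested. The log2 fold change was -0.63 ± 0.19 (SE; 95% interval -1.06 to -0.20; edgeR adjusted p = 0.138) and ran from -0.69 to -0.56 with each library left out in turn. Only 11 to 22 reads per library lie behind these values. Exons of Bcl3 share 161 bases with Gm16175 on the opposite strand, and its level is uncertain if the counting ignored strand.

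The subunit that carries most of the transactivating function in the canonical pathway, Rela (ENSMUSG00000024927; chromosome 19, 5637483 to 5648130, plus strand), was at 28.5, 26.3, 25.3 and 24.4 CPM in hypoxia and 25.7, 24.4, 23.8 and 26.9 CPM in normoxia. Its partner Nfkb1 (ENSMUSG00000028163; chromosome 3, 135584655 to 135691547, minus strand), whose precursor protein also acts as an inhibitor, was at 25.5, 30.6, 25.1 and 24.3 CPM in hypoxia and 28.7, 26.1, 28.7 and 25.8 CPM in normoxia. The groups overlapped for both genes. The log2 fold changes were 0.05 for Rela (95% interval -0.11 to 0.21; edgeR adjusted p = 0.736) and -0.05 for Nfkb1 (95% interval -0.24 to 0.14; edgeR adjusted p = 0.7795). With 415 to 610 reads per library, these intervals are the narrowest of the 10 members, and neither reaches a log2 change of 0.25 in either direction.

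Rel (ENSMUSG00000020275; chromosome 11, 23736847 to 23770970, minus strand), the subunit c-Rel that is prominent in lymphocytes, was at 5.37, 4.69, 5.89 and 5.79 CPM in hypoxia and 5.83, 7.60, 6.49 and 6.81 CPM in normoxia. Only normoxia replicate 1 lay within the hypoxia range. The log2 fold change was -0.30 (95% interval -0.57 to -0.02; edgeR adjusted p = 0.231; unadjusted p = 0.0387), and it was -0.22 without normoxia replicate 2.

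The non-canonical pair of Relb and Nfkb2, which is activated through processing of the Nfkb2 precursor, was at low levels. Relb (ENSMUSG00000002983; chromosome 7, 19606217 to 19629438, minus strand) was at 2.90, 4.00, 3.19 and 4.09 CPM in hypoxia and 3.34, 4.41, 2.76 and 3.18 CPM in normoxia, with overlapping groups (log2 fold change 0.05; 95% interval -0.36 to 0.46; edgeR adjusted p = 0.912). Nfkb2 (ENSMUSG00000025225; chromosome 19, 46304320 to 46312385, plus strand) was at 2.90, 4.85, 2.66 and 2.74 CPM in hypoxia and 4.70, 3.78, 4.59 and 4.09 CPM in normoxia. Hypoxia replicate 2 was the highest of all 8 libraries, while the other 3 hypoxia libraries were the lowest. The log2 fold change was -0.39 (95% interval -0.85 to 0.08; edgeR adjusted p = 0.337), and without hypoxia replicate 2 it was -0.63 (edgeR adjusted p = 0.117). Nfkb2 was highest in hypoxia replicate 2 and normoxia replicate 1, which also had the highest oligodendrocyte marker sums (9200 and 10740 CPM). The lowest sum, 5993 CPM, was in normoxia replicate 2, where Nfkb2 was at 3.78 CPM. The part of this in the level of Nfkb2 was not tested. Exons of Nfkb2 share 830 bases with Psd and AC114539.1 on the opposite strand, so its level is uncertain if the counting ignored strand.

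**Figure D3:**
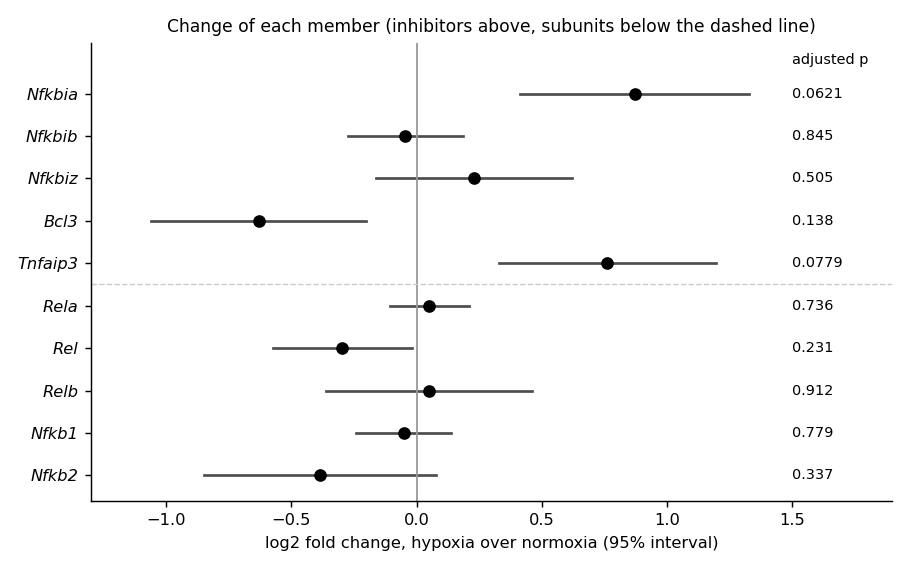
Log2 fold change of each member, hypoxia over normoxia, with its 95% interval and, at the right, the edgeR adjusted p over all genes tested. Inhibitors are above the dashed line and subunits below it; the intervals of Nfkbia, Tnfaip3, Bcl3 and Rel do not reach 0, and no adjusted p is under 0.05.

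Levels of different genes were compared per length, as RPKM (CPM per kilobase of merged exons). Merged exons pool all annotated transcripts of a gene and can be longer than any single transcript, so the order below depends on them. They were 12061 bases in Nfkb1, 7466 in Rel and 7226 in Tnfaip3, against 3072 in Rela, 2169 in Nfkbib and 1610 in Nfkbia. Nfkbia had the highest level, 19.9 ± 3.77 RPKM in hypoxia and 10.9 ± 3.22 RPKM in normoxia (SD, n = 4 each). It was followed by Rela (8.51 ± 0.582 in hypoxia, 8.21 ± 0.451 in normoxia) and Nfkbib (7.15 ± 0.919 and 7.38 ± 0.455). Nfkbia exceeded Rela, and Rela exceeded Nfkbib, in 8 of 8 libraries. Nfkb1 came next at 2.19 ± 0.237 RPKM in hypoxia and 2.27 ± 0.132 in normoxia, with no overlap with its neighbours in this order. In CPM, which leaves length out, Nfkb1 (26.4 in hypoxia, 27.3 in normoxia) was close to Rela (26.1 and 25.2). The group means of the other 6 members were 0.262 to 1.04 RPKM. Over both groups together the ranges of Nfkbiz, Relb, Nfkb2, Rel and Tnfaip3 overlapped, with Relb above Nfkb2 in 4 of 8 libraries and Rel above Tnfaip3 in 6 of 8. Within normoxia every value of Tnfaip3 (0.278 to 0.515 RPKM) was below every value of Nfkbiz, Relb, Nfkb2 and Rel (0.656 RPKM or more). Within hypoxia every value of Nfkbiz (0.945 to 1.10 RPKM) was above every value of Rel and Tnfaip3 (0.8425 RPKM or less). The means of Nfkb2, Tnfaip3 and Rel were 0.717, 0.719 and 0.728 RPKM in hypoxia and 0.936, 0.422 and 0.895 RPKM in normoxia. Bcl3 had the lowest mean in both groups (0.262 RPKM in hypoxia, 0.408 RPKM in normoxia), and it was below Tnfaip3 in 7 of 8 libraries.

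Each list of pathway genes around the members held 0 or 1 genes called by edgeR. Of all genes tested, 0.915% were called higher and 1.23% lower. Of the 2 other IκB relatives tested, 0 were called, and Nfkbid, a nuclear IκB protein, had the smaller p (log2 fold change -0.45; edgeR adjusted p = 0.216). Of 10 genes of the IKK complex and its upstream kinases, 0 were higher and 1 was lower (median log2 fold change -0.09). That gene was Ikbkb, the catalytic subunit that phosphorylates IκBα. Ikbkb was at 47.5, 44.9, 48.1 and 49.2 CPM in hypoxia replicates 1 to 4 and at 55.2, 59.3, 55.5 and 54.3 CPM in normoxia replicates 1 to 4, with no overlap. It fell to 47.5 ± 1.82 CPM in hypoxia, against 56.1 ± 2.24 CPM in normoxia (SD, n = 4 each; log2 fold change -0.24 ± 0.05, SE; edgeR adjusted p = 0.046).

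Of 18 adaptors and ubiquitin ligases, 0 were higher and 1 was lower (median log2 fold change -0.05). Myd88, the adaptor of interleukin 1 and Toll-like receptors, fell to 4.34 ± 0.375 CPM in hypoxia, against 6.15 ± 0.268 CPM in normoxia (SD, n = 4 each; log2 fold change -0.50; edgeR adjusted p = 0.0498). It overlaps Acaa1a on the opposite strand, so its level is uncertain if the counting ignored strand. In 7 of these 18 genes all hypoxia libraries were below all normoxia libraries, and in 0 above, beside 7.75% of all genes tested below and 5.69% above. Of 15 tested negative regulators outside the IκB family, 0 were higher and 1 was lower (median -0.01). The ubiquitin ligase gene Itch, which works with Tnfaip3, fell to 67.1 ± 4.62 CPM in hypoxia, against 84.6 ± 2.87 CPM in normoxia (log2 fold change -0.34 ± 0.06, SE; edgeR adjusted p = 0.0284).

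The calls in these lists changed with the libraries used. Ikbkb and Itch were called without hypoxia replicate 4 or normoxia replicate 2 and in none of the 6 fits without another library, where the edgeR adjusted p was 0.0928 to 0.154 for Ikbkb and 0.0725 to 0.12 for Itch. Calls fell over all genes too: those 6 fits called 0.0116% to 0.0464% of all genes lower. The share was 2.65% without hypoxia replicate 4 and 2% without normoxia replicate 2. Myd88 was called without hypoxia replicate 4 (edgeR adjusted p = 0.0327) and in none of the other 7 such fits, among them the one without normoxia replicate 2 (0.0512). With libraries scaled by median ratios its edgeR adjusted p was 0.0513, and with no filter on low counts the value was 0.0879 for Ikbkb and 0.0883 for Myd88.

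Of 9 cytokine ligands, 4 passed the filter and 0 were called by edgeR; Tnfsf13b had the smallest p (log2 fold change 0.50; edgeR adjusted p = 0.183). Tnf, the prototype inducer, had 1 read in the 4 hypoxia libraries together and 2 in the 4 normoxia libraries, and Il1b had 3 and 5. Of 10 receptors tested, 0 were called by edgeR, 9 had a negative log2 fold change and the median was -0.14, where 51.8% of all genes tested were negative. The exception was Il1r1, the interleukin 1 receptor, at 6.63 ± 0.71 CPM in hypoxia and 4.68 ± 0.722 CPM in normoxia (SD, n = 4 each; log2 fold change 0.50; edgeR adjusted p = 0.0977), which DESeq2 called higher (adjusted p = 0.0378).

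Most inflammatory targets of NF-κB were too scarce to test. Of 27 target genes, 12 passed the filter, and the 15 others had at most 13 reads in any library. Il6 had 9 reads in the 4 hypoxia libraries together and 3 in the 4 normoxia libraries. Ccl2 had 13 and 8, Cxcl1 7 and 3, Cxcl10 27 and 26, Lcn2 40 and 26, and Ccl3 5 and 13. Ccl20, Csf2 and, among the ligands, Cd40lg had 0 reads in all 8 libraries, which allows up to 0.0188 CPM over the 8 (3 counts; counting error only). These genes were not among those tested.

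Of the 12 targets tested, 1 was higher and 0 were lower (median log2 fold change 0.04), and 6 were positive and 6 negative. In 3 of the 12 all hypoxia libraries were above all normoxia libraries, and in 0 below, beside 5.69% of all genes tested above and 7.75% below. Ptgs2 had the most negative log2 fold change of the 12, -1.04, with overlapping groups (edgeR adjusted p = 0.138). Ier3, an early response gene that protects from cell death, was at 17.1, 15.9, 16.3 and 10.3 CPM in hypoxia replicates 1 to 4 and at 7.05, 4.63, 8.16 and 8.08 CPM in normoxia replicates 1 to 4. The groups did not overlap, and hypoxia replicate 4 was the lowest of its group. Ier3 rose to 14.9 ± 3.10 CPM in hypoxia, against 6.98 ± 1.65 CPM in normoxia (SD, n = 4 each; log2 fold change 1.09; edgeR adjusted p = 0.0366). Ier3 was called without hypoxia replicate 4 or normoxia replicate 2 and in none of the 6 fits without another library (edgeR adjusted p 0.0791 to 0.138), which called 0.139% to 0.244% of all genes higher. Over all genes tested, DESeq2 called 2.25% higher and 3.66% lower. By edgeR the shares were 1.37% and 2.65% without hypoxia replicate 4, and 1.91% and 2% without normoxia replicate 2. In each of these fits 2 targets were higher and 1 was lower. The genes added, named after their values were seen, were Bcl2l1, a survival gene (117.7 ± 8.15 CPM in hypoxia, 99.7 ± 5.54 CPM in normoxia; log2 fold change 0.24), and Irf1, an interferon regulatory factor gene (4.42 ± 0.821 CPM in hypoxia, 6.91 ± 1.31 CPM in normoxia; log2 fold change -0.64). With all 8 libraries their edgeR adjusted p was 0.0816 for Bcl2l1 and 0.0916 for Irf1, which shares exon bases with Gm17334 on the opposite strand. The vascular adhesion genes Icam1 and Vcam1, picked after their values were seen, had log2 fold changes of -0.14 and -0.01 (edgeR adjusted p = 0.784 and 0.978). Both share exon bases with a gene on the opposite strand.

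**Figure D4:**
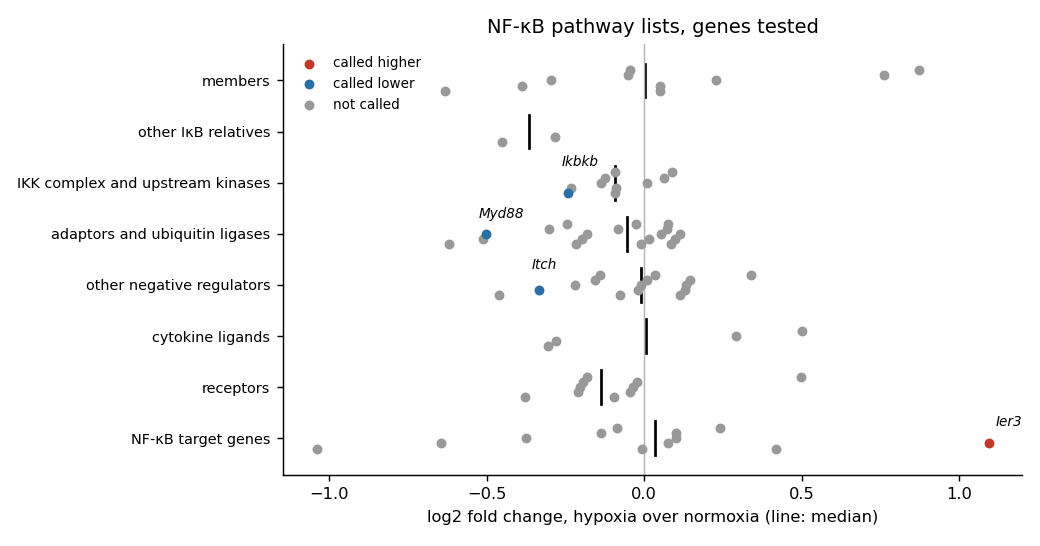
Log2 fold change, hypoxia over normoxia, of every tested gene in the members and in 7 lists of pathway genes; each point is a gene, the black line is the list's median, and genes called by edgeR are red (higher) or blue (lower) and named. Ier3 is the single gene called higher, and Ikbkb, Myd88 and Itch are those called lower.

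For comparison, 9 of 12 HIF target genes were called higher and 0 lower (median log2 fold change 0.80), led by Ankrd37, Slc16a3, Vegfa and Pfkfb3. Of 14 glucocorticoid-responsive genes, 6 were called higher and 0 lower (median 0.70), led by Mt2, Mt1, Arrdc2 and Errfi1. In the fits without 1 library, 4 to 9 of the HIF targets and 3 to 12 of the glucocorticoid-responsive genes were called higher, beside 0.139% to 1.91% of all genes tested. These lists were chosen with earlier results of these data known.

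The level of Nfkbia in each library was set beside these lists, as log2 CPM relative to the mean of the 8 libraries. In hypoxia replicates 1 to 3 Nfkbia was at 0.56 to 0.65, the mean of the glucocorticoid-responsive list at 0.51 to 0.61 and the mean of the HIF list at 0.49 to 0.61. All were lower in hypoxia replicate 4, at -0.01, 0.17 and 0.12 in the same order. In normoxia replicate 2 Nfkbia was at 0.12 and the glucocorticoid-responsive list at 0.04, above the other normoxia libraries (-0.76 to -0.55 and -0.69 to -0.60), whereas the HIF list was at -0.42, within the -0.49 to -0.39 of the others. Within the glucocorticoid-responsive list 13 of 14 genes had normoxia replicate 2 as the highest normoxia library, by unequal margins. Sgk1 was at 94.5 CPM there and at 37.3 to 38.5 CPM in the other 3, whereas Mt2 was at 71.5 CPM there and at 67.2 to 71.0 CPM in the others. Errfi1 was at 31.32 CPM there and at 29.7 to 31.31 CPM in the others. Within the HIF list normoxia replicate 2 was the highest normoxia library in 4 of 12 genes. Among them was Egln3, at 15.2 CPM there and at 6.20 to 6.49 CPM in the others, so the HIF mean joins unlike genes. The share of all genes with normoxia replicate 2 highest was not computed. Tnfaip3 was at -0.07 in normoxia replicate 2 and at -0.93 to -0.26 in the other 3 normoxia libraries. These contrasts rest on a single library. Normoxia replicate 2 also had the highest marker sums for cortex and hippocampus (435 CPM) and for pituitary (80.2 CPM). What sets it apart was not tested.

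**Figure D5:**
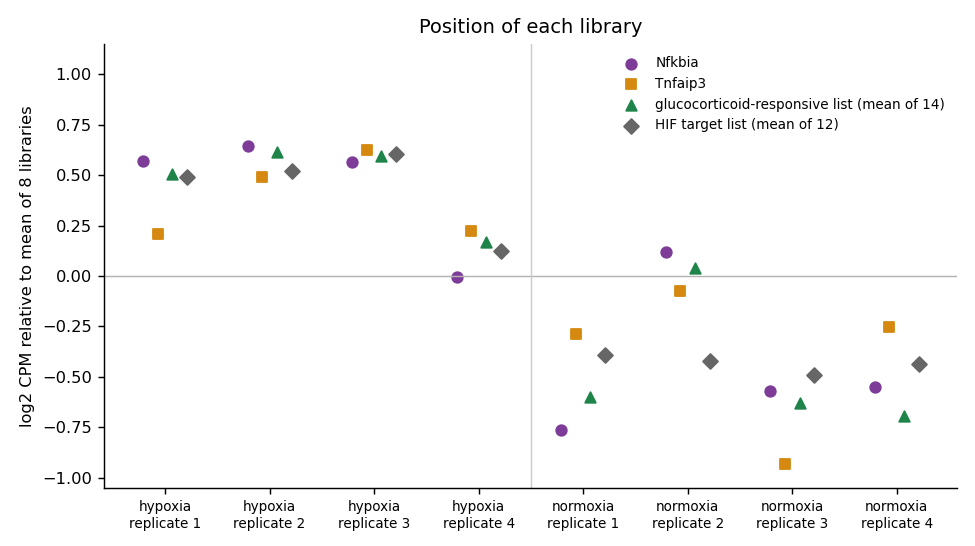
Log2 CPM of Nfkbia and Tnfaip3, and the mean log2 CPM of 14 glucocorticoid-responsive and 12 HIF target genes, each relative to its own mean of the 8 libraries, hypoxia left of normoxia. In normoxia replicate 2, Nfkbia (0.12) and the glucocorticoid-responsive list (0.04) lie above the other normoxia libraries, and the HIF list (-0.42) does not. That is a single library, which also stood apart in markers of other regions, and the cause was not tested.

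The genes with the pattern nearest to that of Nfkbia were found by the root mean square difference of log2 CPM, each gene centred on its mean of the 8 libraries, among 13718 named genes of at least 1 CPM. They were Tiparp, an ADP-ribosyltransferase gene (difference 0.153), the clock repressor gene Per1 (0.158), the kinase gene Map3k6 (0.161), the histone demethylase gene Kdm3a (0.168) and the noncoding RNA Snhg15 (0.177). The root mean square of Nfkbia itself was 0.535. For Tnfaip3 (0.466) they were Nostrin, Klf9, Rassf7, Klf15 and Slc16a6 (0.178 to 0.196), and for Nfkbiz (0.252) Arl4a, Dusp18, Mapk4, Rasgef1a and Mn1 (0.0795 to 0.103). Tiparp had 32.7, 34.8, 36.5 and 25.96 CPM in hypoxia and 18.3, 26.4, 17.9 and 18.5 CPM in normoxia. Likeness to Nfkbia across these 8 libraries is what chose it.

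In bulk RNA, fewer cells of a type and less RNA per cell cannot be told apart, so markers of cell types in which the pathway is active are given beside the members. The 6 microglial markers summed to 249.3 to 274.5 CPM in hypoxia and 237 to 284 CPM in normoxia, with 0 called. The 6 endothelial markers summed to 208.5 to 242 CPM in hypoxia and 221 to 269.6 CPM in normoxia, with 0 called higher and 1 lower. The 5 astrocyte markers summed to 2301 to 2423 CPM in hypoxia and 2219 to 2534 CPM in normoxia, with 0 called. Leukocyte markers summed to 5.03 to 6.98 CPM in hypoxia and 5.74 to 7.81 CPM in normoxia, with the neutrophil gene Ly6g at 0 in all 8 libraries. The groups overlapped in each of these sums, and their part in the members' values was not tested.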

How the data were processed

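The deposited table holds raw counts for Ensembl genes, with a column for each library, and columns were assigned from the names given in the samples' description labels. Per the submitters' processing notes, the tools were featureCounts, DESeq2, SAMtools, Trimmomatic, HISAT and HISAT2 2.0.4, and the build was mm10. Per the labels' protocols, libraries came from the TruSeq Stranded mRNA kit. The sources used here do not give the annotation release, the strand setting or how multi-mapping reads were counted.

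Symbols, positions and exon lengths came from GENCODE M21 (GRCm38, the assembly of mm10), which holds 55227 of the 55487 rows. Counts were tested with edgeR 4.0.16 (R 4.3.3): filterByExpr (minimum count 10, minimum total 15), TMM scaling, and a quasi-likelihood F test with group as the only term. A gene was called where its Benjamini-Hochberg adjusted p, computed over the 17047 genes, was below 0.05. The standard error is the log2 fold change divided by the square root of F, and intervals use the test's total degrees of freedom. The code was tested on simulated data. Alternatives covered DESeq2 1.42.0, limma-voom (limma 3.58.1), scalings, filters, robust estimation, a newer form of the test, a replicate block, and libraries left out.

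Within groups, log2 CPM correlated at 0.976 to 0.992 and chi-square per gene was 4.64 to 37.7, so no library repeats another.

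Besides the members, the text names up to 4 called genes with the smallest p in each list (or, with none called, the gene with the smallest p) and 5 nearest patterns for 3 members. Other genes named were chosen after their values were seen. Members, lists and alternatives were chosen with earlier results of these data known.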

Additional observations from a re-analysis of the deposited data

Results flagged for a closer look

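In 20 groups of 4 libraries (10 members in each condition), 2 had a library far from the other 3, where chance flags about 1 in 20. Nfkbia was at 23.1 CPM in hypoxia replicate 4, against 34.4 to 36.4 CPM in the other hypoxia libraries. Nfkb2 was at 4.85 CPM in hypoxia replicate 2, against 2.66 to 2.90 CPM in the other hypoxia libraries.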

How the results depend on the processing

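The count of members called higher was 0 with all 8 libraries and with other scalings, limma-voom, the newer quasi-likelihood form, robust estimation and a filter of at least 1 CPM in 4 libraries (which removed Bcl3). It was 1 with no filter on low counts (Nfkbia), 2 with DESeq2, 2 at an adjusted p under 0.1 and 2 without normoxia replicate 2 and hypoxia replicate 4 together (Nfkbia and Tnfaip3 each time). Leaving out 1 library gave 0 to 2. The count called lower was 0 under every alternative run. Log2 fold changes near 0 turned sign: Nfkbib ran from -0.087 to 0.044 and Relb from -0.032 to 0.20 with 1 library left out, and Nfkbib was 0.063 without both libraries. The cause was not tested. The other 8 members kept their sign. With the replicate number as a block, 0 members were called higher and 0 lower, with 20 genes higher and 1 lower in all. Same-numbered libraries correlated at -0.105 to 0.043 in their deviations, so the numbers were not taken as pairs.

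Over all genes, 156 were called higher and 210 lower; total-count scaling gave 146 and 342, DESeq2 384 and 624, an adjusted p under 0.1 384 and 674, the fit without both libraries 456 and 739, and fits without 1 library 24 to 329 higher and 2 to 457 lower. Depth limits Bcl3 (11 to 22 reads per library) and the genes that did not pass the filter.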
